A study of Homo with 4 samples.

Results

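The genes described here are those for the enzymes that place and remove N6-methyladenosine (m6A), the methyl mark on internal adenosines of mRNA. They comprise METTL3, METTL14, WTAP, VIRMA, RBM15, RBM15B, ZC3H13 and CBLL1 on the writer side and FTO and ALKBH5 on the eraser side. The members were listed by name, and all 10 were found, by position on GRCh38, among the 20263 genes of the count table. They carried 56 annotated transcripts, of which 46 had a count in at least 1 library.

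RNA-seq was measured in H1299 cells, a non-small cell lung cancer line of epithelial origin, after lentiviral infection with short hairpin RNA. The control cells (shCtrl, genotype WT) and the IGF2BP3 knockdown cells (shIGF2BP3) had 2 libraries each, and both groups had gone through infection. IGF2BP3 is an m6A reader, a protein that binds methylated mRNA, so the comparison asks whether the genes that set the mark differ once a reader is lowered. The sources used here do not state whether the shIGF2BP3 libraries carry the same hairpin, and p-values measure only the spread between these libraries.

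m6A is written in the nucleus by METTL3, the catalytic subunit, in a heterodimer with METTL14, which binds the RNA substrate. WTAP holds the heterodimer in nuclear speckles and links it to a larger regulatory complex of VIRMA, the scaffold, RBM15 and RBM15B, which bring the complex to RNA, ZC3H13, which keeps it in the nucleus, and CBLL1 (HAKAI), a RING-finger E3 ubiquitin ligase. ALKBH5 and FTO are iron- and 2-oxoglutarate-dependent dioxygenases that remove the methyl group, and FTO also acts on the cap-adjacent N6,2′-O-dimethyladenosine. The libraries hold RNA levels and no measurement of m6A itself.

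Total counts ran from 29709686 to 34817513 per library, of which 9.11% to 17.02% came from mitochondrially encoded genes. The lowest total and the highest mitochondrial share were both in shIGF2BP3 replicate 2. IGF2BP3 itself had 41.1 and 32.9 CPM (counts scaled to a common library size by TMM factors) in shCtrl and 26.4 and 24.8 CPM in shIGF2BP3, a log2 difference of -0.53 (SE 0.17) with an adjusted p = 0.472 (quasi-likelihood test of edgeR, Benjamini-Hochberg). The knockdown groups did not overlap, but the targeted gene did not reach a fold of 1.5. The keratins KRT8 and KRT18, which mark simple epithelia, were at 699 CPM or more in every library, whereas the epithelial adhesion genes EPCAM and CDH1 were at 0.354 CPM or less and the leukocyte gene PTPRC was at 0. The mesenchymal gene VIM was above both keratins in every library, at 4338 to 7100 CPM, and highest in shIGF2BP3 replicate 2.

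All 10 genes were expressed in control H1299 cells, over a 37.1-fold range of level per transcript length (summed FPKM, fragments per kilobase of transcript scaled to library size). WTAP was highest, at 41.5 ± 6.42 FPKM (SD, n = 2), followed by ALKBH5 at 30.7 ± 2.15 and METTL3 at 21.6 ± 0.277. VIRMA at 12.4 ± 1.99 and RBM15B at 11.2 ± 0.158 came next, and their libraries overlapped, so these neighbours were not ordered. ZC3H13 stood at 5.53 ± 0.152 and CBLL1 at 4.19 ± 0.373. At the low end were RBM15 at 2.45 ± 0.280, FTO at 2.11 ± 1.40 and METTL14 at 1.12 ± 0.191, and FTO overlapped both of its neighbours in this order. Among the 13379 genes tested, WTAP stood at percentile 87.3 of shCtrl FPKM and METTL14 at percentile 19.8. With all 4 libraries in view, ZC3H13 and CBLL1 also overlapped.

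**Figure D1:**
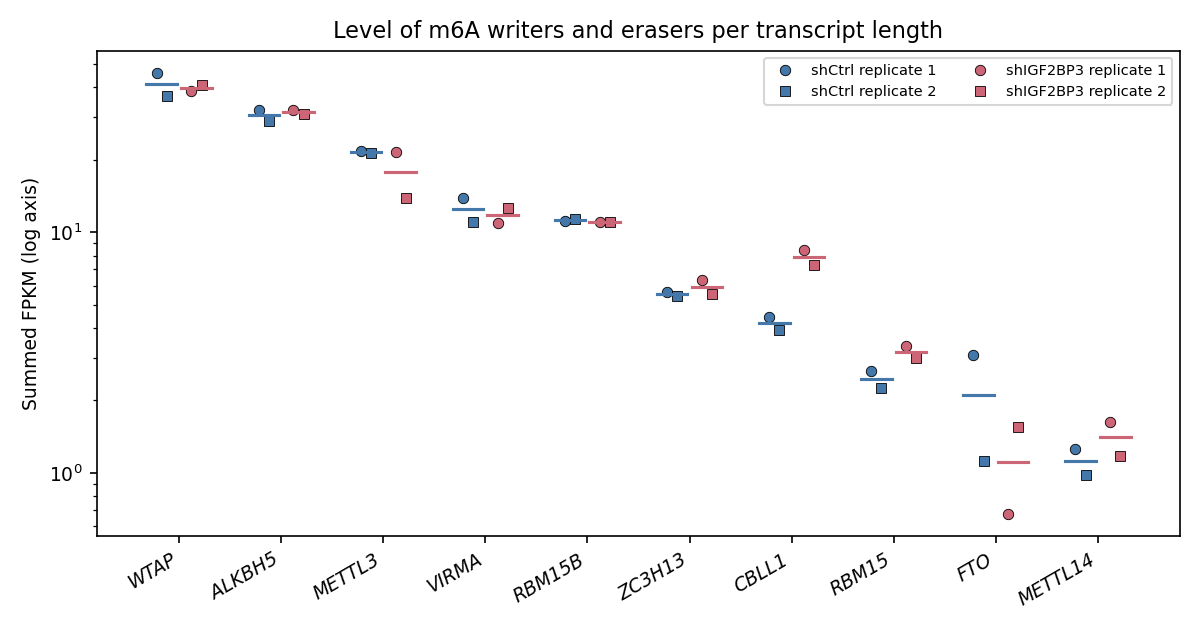
Summed FPKM of each gene (log axis) in each library, with genes ordered by their shCtrl mean. Circles and squares are replicates 1 and 2, blue is shCtrl, red is shIGF2BP3, and the short lines are group means; WTAP is highest and METTL14 lowest in shCtrl, and the CBLL1 groups do not overlap.

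The 2 subunits of the methyltransferase heterodimer sat far apart in this order. METTL3 FPKM was 17.4 and 21.8 times that of METTL14 in the shCtrl libraries and 13.2 and 11.8 times in the shIGF2BP3 libraries, so the ratio did not overlap between groups. This rested in part on a METTL14 transcript with few counts, ENST00000506780. It held 40.9% and 32.3% of METTL14 FPKM in shCtrl and 57.0% and 0% in shIGF2BP3. The main METTL14 transcript alone was 0.740 and 0.664 FPKM in shCtrl and 0.690 and 1.18 in shIGF2BP3, with the first shIGF2BP3 library within the shCtrl range. ALKBH5 was the more abundant eraser in every library, but its ratio to FTO ranged from 10.4 to 47.5 and the groups overlapped. RBM15B exceeded RBM15 by 4.21 and 5.05 times in shCtrl and by 3.28 and 3.66 times in shIGF2BP3. These ratios are given as a description and were not tested.

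At the gene level, 1 of the 10 members, CBLL1, was higher in shIGF2BP3 where a call needed a 1.5-fold difference and an unadjusted p no larger than 0.05, and none was lower. Over all 13379 genes tested, 2.54% were called higher and 2.78% lower by the same rule. No member, and 0% of all genes, passed an adjusted p of 0.05 in edgeR's test, while 2 members and 10.5% of all genes reached an unadjusted p of 0.05 whatever the fold. DESeq2 called 1 member, CBLL1, at an adjusted p of 0.05, and 160 genes in all. The difference was positive for 8 members and negative for 2, beside 6658 and 6721 of all genes tested, with a median log2 difference of 0.11 beside -0.0019. With limma on log2(FPKM + 1), WTAP, VIRMA and RBM15B turned negative, and the median over all genes was -0.070. Of the 10 members, 5 were higher in both shIGF2BP3 libraries than in both shCtrl libraries and 0 were lower, beside 23.3% and 23.5% of all genes. This holds for TMM-scaled CPM: by FPKM the groups of METTL14, ZC3H13 and ALKBH5 overlapped, and those of CBLL1 and RBM15 did not.

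**Figure D2:**
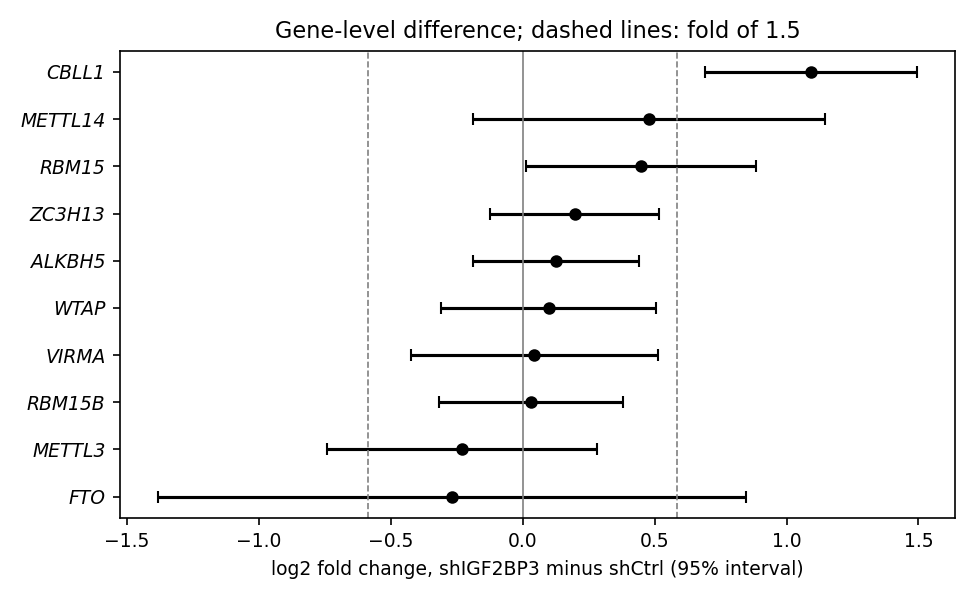
log2 fold change of shIGF2BP3 against shCtrl for the 10 genes, with 95% intervals from edgeR's quasi-likelihood fit over 2 libraries per group; the solid line is no difference and dashed lines mark a fold of 1.5. CBLL1 (1.09) and RBM15 (0.45) have intervals above 0, and the other 8 intervals cross 0.

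CBLL1 (ENSG00000105879, chromosome 7, 107743697 to 107761667, plus strand) was 18.4 and 15.9 CPM in shCtrl and 37.3 and 35.9 CPM in shIGF2BP3. The lower shIGF2BP3 library was still well above the higher shCtrl library, and the replicates within each group lay close together. The log2 difference was 1.09 (SE 0.16), a 2.13-fold increase with a 95% interval of 1.62 to 2.82 and an unadjusted p of 0.000713, which ranked 44th of the 13379 genes. After Benjamini-Hochberg adjustment in edgeR the p was 0.217. By FPKM the gene went from 4.46 and 3.93 in shCtrl to 8.42 and 7.32 in shIGF2BP3, which moved it above ZC3H13 in the order of levels. With 1 library left out at a time, the log2 difference stayed between 0.99 and 1.20, and its fold and unadjusted p stayed past both thresholds each time.

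Almost all of the CBLL1 count lay in a single transcript, ENST00000440859, which held 94.4% and 83.7% of it in shCtrl and 91.4% and 96.7% in shIGF2BP3. The transcript rose from 17.6 and 13.1 CPM to 34.5 and 35.1 CPM, a log2 difference of 1.18 (95% interval 0.40 to 1.96, unadjusted p = 0.0153). This was the only one of the 29 member transcripts tested that was called higher, beside 2.5% of all transcripts, and none was called lower, beside 3.79%. None passed an adjusted p of 0.05, beside 0% of all transcripts. Of the 29, 6 were higher and 5 lower in both shIGF2BP3 libraries than in both shCtrl libraries, beside 18.4% and 21.7% of all transcripts. Its adjusted p was 0.489 in the same edgeR test. The call was lost when shCtrl replicate 2, shIGF2BP3 replicate 1 or shIGF2BP3 replicate 2 was left out, with log2 differences of 0.99, 1.22 and 1.17. The share of the transcript overlapped between groups. As it held most of the gene's count, its rise and that of the gene are not separate results. RefSeq places the non-coding CBLL1-AS1 over 885 bases of the gene, and without a known strand setting reads from either could not be told apart.

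METTL3 (ENSG00000165819, chromosome 14, 21498133 to 21511375, minus strand) was 47.7 and 51.7 CPM in shCtrl and 49.7 and 34.9 CPM in shIGF2BP3. The first shIGF2BP3 library lay within the shCtrl range, and the second lay below every other library. The log2 difference was -0.23 (95% interval -0.74 to 0.28, adjusted p = 0.672 in the edgeR test). Without shIGF2BP3 replicate 2 it was 0.00080, and without shIGF2BP3 replicate 1 it was -0.50, so the difference rested on 1 library. The interval reached down to 0.597 of the control level.

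The METTL3 count was split mainly between a pair of transcripts. ENST00000298717 held 50.2% and 46.9% of the METTL3 count in shCtrl and 64.9% and 63.9% in shIGF2BP3. ENST00000543235 held 42.9% and 44.4% in shCtrl and 31.2% and 30.3% in shIGF2BP3. Neither share overlapped between groups, and replicates differed far less than the groups did. Such separation was found for 4 higher and 8 lower shares among the 28 member transcripts with a share test, beside 17.1% and 21.3% of all transcripts. The 2 transcripts have nearly the same span, with starts 65 bases and ends 35 bases apart. In the edgeR test of transcript shares the log2 differences were 0.41 and -0.50, each with an adjusted p = 1, so the shift did not pass. No member share reached an unadjusted p of 0.05 or an adjusted p of 0.05 in that test, beside 4.51% and 0.83% of all shares. The main transcript ENST00000298717 was 24.3 and 23.8 CPM in shCtrl and 32.7 and 22.5 CPM in shIGF2BP3, on both sides of the controls, with a log2 difference of 0.20 (95% interval -0.65 to 1.05). The transcript ENST00000543235 was 20.8 and 22.6 CPM in shCtrl and 15.7 and 10.7 CPM in shIGF2BP3, a log2 difference of -0.71 (95% interval -1.66 to 0.23, unadjusted p = 0.0987). DESeq2 gave -0.70 with an unadjusted p of 0.0287 and an adjusted p of 0.232. METTL3 shares 1043 bases with TOX4 on the opposite strand. TOX4 had 1634 and 2055 counts in shCtrl and 1232 and 1231 in shIGF2BP3, against 960 to 1794 per library for METTL3.

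METTL14 (ENSG00000145388, chromosome 4, 118685368 to 118715433, plus strand) had the fewest counts of the group, 195 to 272 per library. Its level was 5.93 and 5.76 CPM in shCtrl and 6.43 and 9.88 CPM in shIGF2BP3. The groups did not overlap, with the first shIGF2BP3 library close to the controls and the second above them. By FPKM this order was turned, at 1.25 and 0.981 in shCtrl and 1.63 and 1.18 in shIGF2BP3, with the first library above the controls and the second within their range. In the first shIGF2BP3 library ENST00000506780 held 57.0% of the FPKM from 35 counts, and in the second it had 0 counts. The log2 difference was 0.48 (95% interval -0.19 to 1.15, adjusted p = 0.528 in the edgeR test). On the log2(FPKM + 1) scale it was 0.18. It was 0.76 on the count scale without shIGF2BP3 replicate 1, where the gene passed the fold and unadjusted p thresholds with an adjusted p = 0.329 in edgeR, and 0.14 without shIGF2BP3 replicate 2. ENST00000388822 was the main transcript, with 82.4% to 100% of the count and 42.2% to 100% of the FPKM.

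WTAP (ENSG00000146457, chromosome 6, 159725585 to 159756319, plus strand), the adaptor of the complex, was 118 and 109 CPM in shCtrl and 108 and 136 CPM in shIGF2BP3. The groups overlapped, and the log2 difference was 0.10 (95% interval -0.31 to 0.51). The sign turned on the FPKM scale, to -0.053. WTAP makes a full-length form and short forms, of which the one with most counts ends 6904 bases earlier. The full-length ENST00000358372 held 55.7% and 60.7% of the count in shCtrl and 59.8% and 70.3% in shIGF2BP3. The short ENST00000337387 held 24.2% and 26.2% in shCtrl and 29.5% and 17.8% in shIGF2BP3. Both shares overlapped between groups, and the shIGF2BP3 libraries lay on opposite sides of the controls for the short form. The whole span of WTAP lies within SOD2 on the opposite strand, and SOD2 had 747 to 1068 counts per library against 3709 to 4424 for WTAP.

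VIRMA (ENSG00000164944, chromosome 8), the scaffold, was 72.1 and 57.4 CPM in shCtrl and 59.2 and 74.3 CPM in shIGF2BP3. The shIGF2BP3 values had nearly the same range as the controls, and the log2 difference was 0.04 (95% interval -0.42 to 0.51). Its main transcript ENST00000297591 held 79.5% to 90.8% of the count. ZC3H13 (ENSG00000123200, chromosome 13, 45954465 to 46052759, minus strand) was 44.8 CPM in both shCtrl libraries and 51.1 and 51.7 CPM in shIGF2BP3. Replicates agreed closely and the groups did not overlap, but the log2 difference was small at 0.20 (95% interval -0.12 to 0.52, adjusted p = 0.576 in the edgeR test), and 0.083 on the log2(FPKM + 1) scale. Within ZC3H13, the share of the long transcript ENST00000242848 was 87.3% and 86.1% in shCtrl and 89.96% and 93.0% in shIGF2BP3. The share of ENST00000282007, which ends 7711 bases earlier, was 12.1% and 12.6% in shCtrl and 9.02% and 6.54% in shIGF2BP3. Neither share overlapped between groups, and neither passed the share test (adjusted p = 1 for both in edgeR).

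RBM15 (ENSG00000162775, chromosome 1, 110338506 to 110346681, plus strand) was 9.84 and 9.18 CPM in shCtrl and 13.0 CPM in both shIGF2BP3 libraries. The groups did not overlap, and the log2 difference was 0.45 (95% interval 0.01 to 0.89), a fold of 1.37 that stayed under the 1.5 used for calls. The unadjusted p was 0.0453 and the adjusted p was 0.472 in the edgeR test, and with library totals in place of TMM the unadjusted p was 0.147. The 2 main transcripts, ENST00000487146 and ENST00000617047, which start 143 bases apart, were both higher by CPM in each shIGF2BP3 library than in each shCtrl library. ENST00000487146 went from 3.54 and 4.15 CPM to 5.29 and 5.95 CPM, and ENST00000617047 from 3.97 and 3.78 CPM to 6.40 and 4.01 CPM. By FPKM the groups of ENST00000617047 overlapped, at 1.09 and 0.963 in shCtrl and 1.66 and 0.950 in shIGF2BP3. Neither transcript passed the test, with log2 differences of 0.55 (unadjusted p = 0.215) for ENST00000487146 and 0.43 (unadjusted p = 0.388) for ENST00000617047 in the edgeR fit. RefSeq places the non-coding RBM15-AS1 over 666 bases of RBM15 and the protein-coding LOC124904276 over 498 bases. Without a known strand setting, reads from these and from RBM15 could not be told apart there. The paralogue RBM15B (ENSG00000259956, chromosome 3, 51391268 to 51397908, plus strand) was 80.9 and 91.4 CPM in shCtrl and 84.3 and 91.8 CPM in shIGF2BP3. These groups overlapped, with a log2 difference of 0.03 (95% interval -0.32 to 0.38) that turned negative with library totals or FPKM. RBM15B is annotated with 1 transcript and shares 2042 bases with DCAF1 on the opposite strand.

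**Figure D3:**
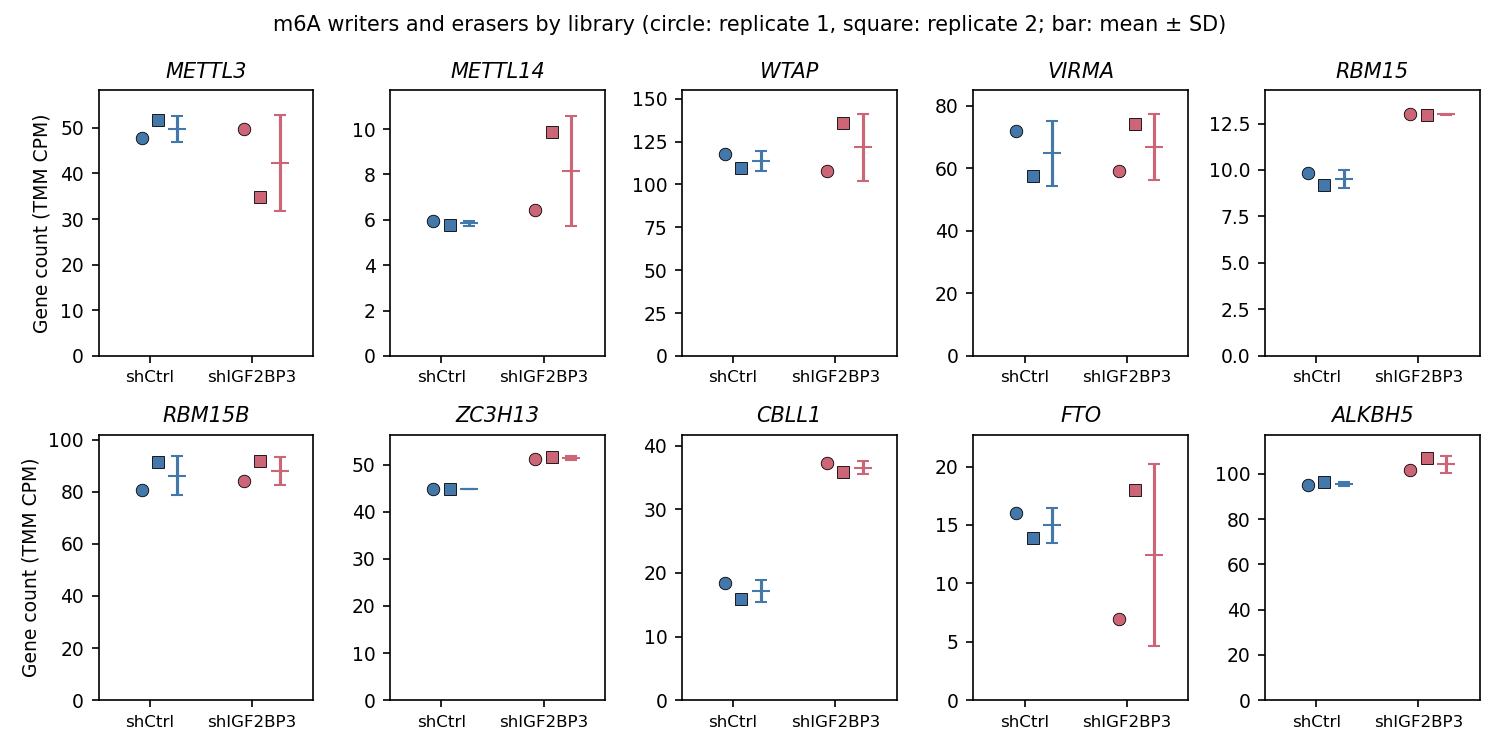
TMM-scaled CPM of each gene in each library, from 0 on a linear axis, with circles for replicate 1, squares for replicate 2 and bars for the mean ± SD of 2 libraries. CBLL1 separates into groups near 17 and 37 CPM, while METTL3 and FTO each have 1 shIGF2BP3 library well below the other libraries.

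FTO (ENSG00000140718, chromosome 16, 53701692 to 54158512, plus strand) was 16.0 and 13.9 CPM in shCtrl and 6.93 and 18.0 CPM in shIGF2BP3. One shIGF2BP3 library was the lowest of all and the other the highest, so the groups overlapped. The log2 difference was -0.27 (95% interval -1.38 to 0.84), the widest interval among the 10 genes. Without shIGF2BP3 replicate 2 the log2 difference was -1.11 and passed the fold and unadjusted p thresholds with an adjusted p = 0.467 in edgeR, and without shIGF2BP3 replicate 1 it was 0.27. On the log2(FPKM + 0.1) scale, with all 4 libraries, it was -0.81 in limma and did not pass. By FPKM the shCtrl libraries also differed, at 3.10 and 1.12. The main transcript ENST00000471389 held 63.8% of the FTO count in shCtrl replicate 1 and 93.3% to 96.8% in the other libraries, so shCtrl replicate 1 stood apart in how its FTO reads were assigned. FTO shares 2247 bases with RPGRIP1L on the opposite strand.

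ALKBH5 (ENSG00000091542, chromosome 17, 18183078 to 18209954, plus strand) was 94.9 and 96.2 CPM in shCtrl and 102 and 107 CPM in shIGF2BP3. The groups did not overlap, and the replicates within each group were close. The log2 difference was 0.12 (95% interval -0.19 to 0.44, adjusted p = 0.711 in the edgeR test), and 0.040 on the log2(FPKM + 1) scale. An increase beyond 1.36-fold lay outside the edgeR interval. ENST00000399138 held 97.6% to 100% of its count.

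**Figure D4:**
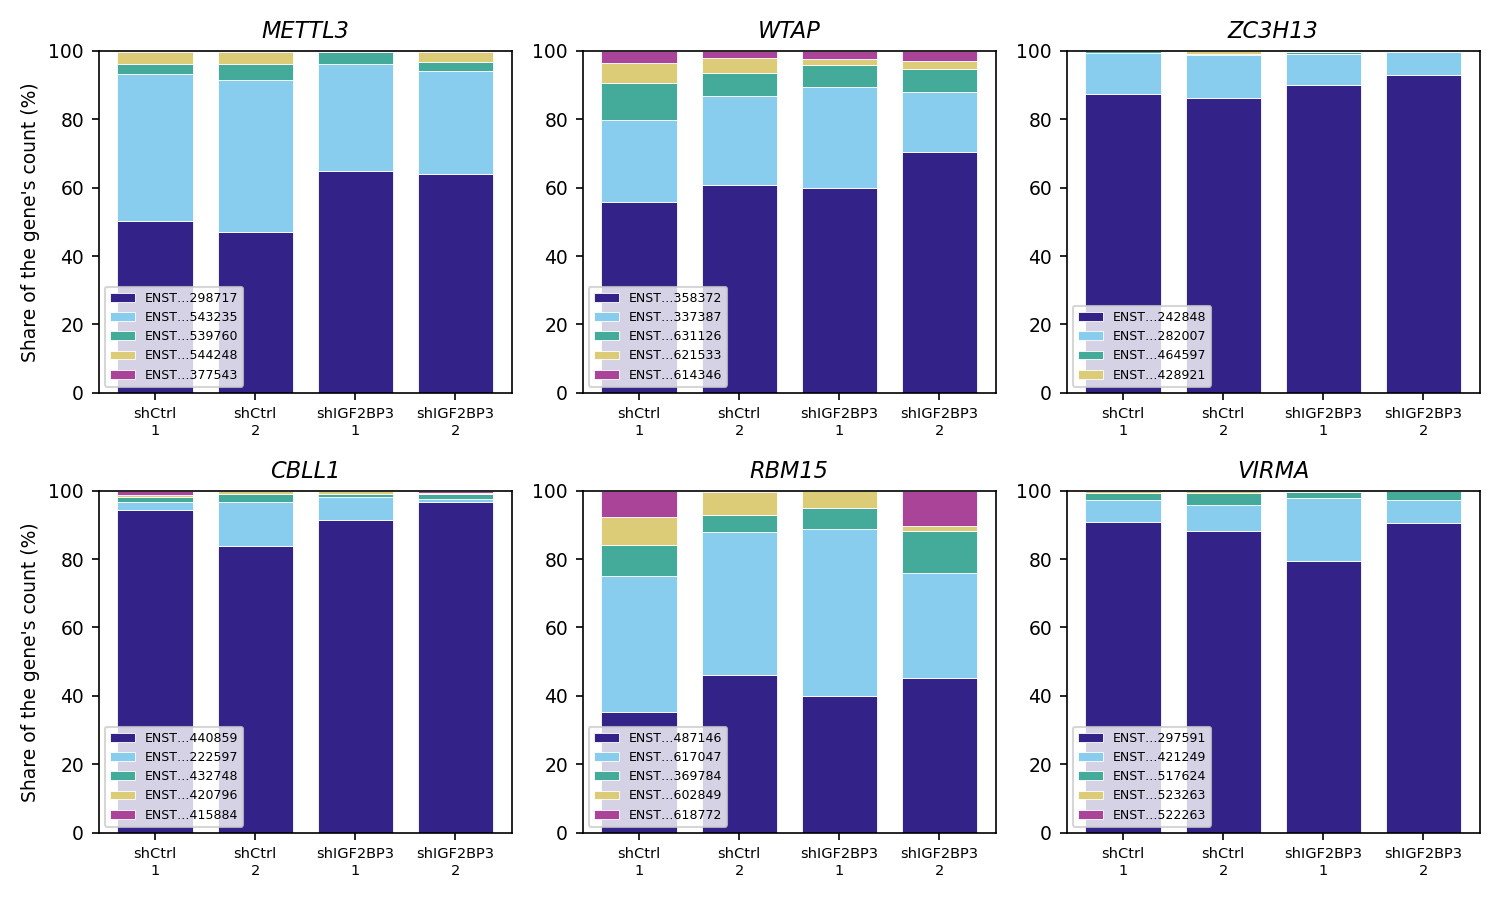
Share of each gene's count (%) assigned to each annotated transcript in the 4 libraries, for 6 writer genes with more than 1 transcript; colours run from the most to the least abundant transcript of each gene. In METTL3 the first transcript takes 46.9% to 50.2% in shCtrl and 63.9% to 64.9% in shIGF2BP3, while CBLL1 keeps 1 dominant transcript throughout.

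Other genes of m6A and related methylation were read for context. Among 6 genes of other RNA methyltransferases and their partners, METTL5, which methylates 18S ribosomal RNA, was the only gene called. Over all genes tested, 2.54% were called higher and 2.78% lower. METTL5 was 40.6 and 45.5 CPM in shCtrl and 61.2 and 81.4 CPM in shIGF2BP3, a log2 difference of 0.73 (95% interval 0.27 to 1.19, adjusted p = 0.472 in edgeR's test). The call was lost without shCtrl replicate 1 (0.65) or without shIGF2BP3 replicate 2 (0.51). METTL4, an N6-adenosine methyltransferase of small nuclear RNA, had a log2 difference of 0.31 and PCIF1, which methylates the cap-adjacent adenosine, one of -0.21.

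Of 13 reader genes, the targeted IGF2BP3 included, 0 were called in either direction, beside 2.54% of all genes called higher and 2.78% lower. Judged by an unadjusted p of 0.05 alone in the edgeR test, 2 had a higher level and 1, IGF2BP3, a lower level, beside 10.5% of all genes. YTHDC2 was 25.5 and 22.6 CPM in shCtrl and 33.3 and 36.2 CPM in shIGF2BP3, with a log2 difference of 0.53 (adjusted p = 0.472 in edgeR's test). YTHDF2 went from 43.97 and 39.5 CPM to 54.9 and 60.4 CPM, with a log2 difference of 0.47 and the same adjusted p. YTHDC1, the nuclear reader, had a log2 difference of 0.33 and did not pass.

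Of 5 genes listed for the cycle that supplies S-adenosylmethionine, the methyl donor, and for its relatives, 4 were matched and AHCY was not. Of these 4, 0 were called, beside 2.54% of all genes called higher and 2.78% lower. MAT2A, the catalytic subunit of S-adenosylmethionine synthesis, was 207 and 178 CPM in shCtrl and 177 and 122 CPM in shIGF2BP3, with a log2 difference of -0.36 (adjusted p = 0.548 in edgeR's test). MAT2B, its regulatory subunit, had a log2 difference of -0.27 and AHCYL1, a relative of the unmatched AHCY, one of -0.33. By CPM these 3 of the 4 matched genes were lower in both shIGF2BP3 libraries than in both shCtrl libraries, beside 23.5% of all genes. They were named for the smallest p of their list, and AHCYL2, with a log2 difference of 0.039, overlapped between groups. By FPKM the groups of MAT2A and AHCYL1 overlapped. Without shIGF2BP3 replicate 1, MAT2A (-0.65) and AHCYL1 (-0.64) passed the fold and unadjusted p thresholds. Among 7 other AlkB dioxygenases, relatives of FTO and ALKBH5, 0 were called, beside the same 2.54% and 2.78% of all genes. The mitochondrial ALKBH7 was 31.7 and 36.6 CPM in shCtrl and 26.7 and 23.3 CPM in shIGF2BP3, with a log2 difference of -0.45 and an adjusted p of 0.472 in the same edgeR test, and ALKBH4 (-0.21) and ALKBH8 (0.22) also did not pass.

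**Figure D5:**
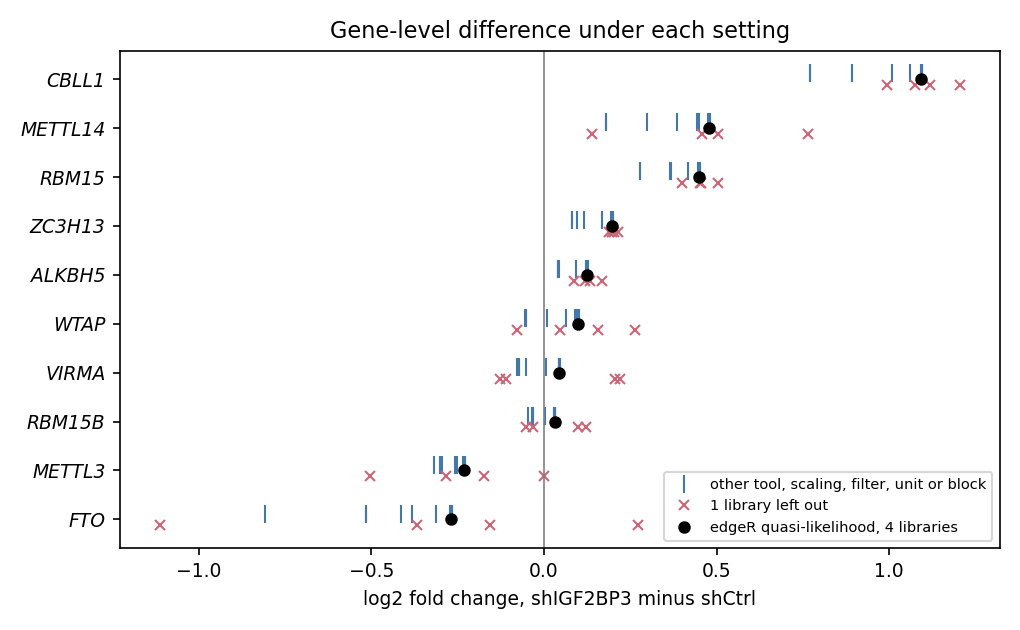
log2 fold change of each gene with all 4 libraries (black), under other tools, scalings, filters, units and the replicate block (blue ticks), and with 1 library left out (red crosses). CBLL1 stays between 0.77 and 1.20, whereas METTL3, WTAP, VIRMA, RBM15B and FTO reach both sides of 0.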

How the data were processed

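mRNA was sequenced from 4 H1299 libraries. Per transcript, the authors deposited estimated counts (whole numbers, not normalized) and FPKM values per transcript and library. Per the labels, CASAVA, Trimmomatic, FastQC, HISAT2 and bedtools were used on GRCh38; the counter, annotation release and strand setting are not given in the sources used here. The count columns number the shIGF2BP3 libraries differently from the labels, and were tied to samples through their file of FPKM values.

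Values of 95139 transcripts were summed to 20263 genes. Symbols came from the best mutual overlap with RefSeq protein-coding genes (shared part at least 0.5, lead at least 0.2), which named 18218 genes. AHCY was not matched and was not analysed here. FPKM sums were used for levels between genes.

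The tests on counts used edgeR 4.0.16 under R 4.3.3 (TMM, filterByExpr at 10 counts and a total of 15, glmQLFit, glmQLFTest, and diffSpliceDGE for shares), two-sided, on 13379 genes, 37927 transcripts and 33125 shares, with Benjamini-Hochberg adjustment over each table. Calls used the study's thresholds, a 1.5-fold difference and an unadjusted p no larger than 0.05, or an adjusted p under 0.05. The 95% intervals came from the same fit. Replicates differed beyond sampling noise (chi-square per gene of 69.5 in shCtrl and 68.3 in shIGF2BP3). The common biological coefficient of variation was 22.8% for genes and 85.0% for transcripts, so the number of libraries limited precision more than depth.

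The members and the other gene lists were chosen with earlier results of these data known. All members were named, with their transcripts that held at least 10% of the gene's count or had an unadjusted p of at most 0.05, and, from each other list, the 3 genes with the smallest p apart from IGF2BP3. The fits were tested on simulated counts: of 98 genes changed 2-fold, 76 were called by fold and unadjusted p and 9 by adjusted p. Among the 13228 genes simulated, 463 and 10 unchanged genes were called by the same rules. Of transcripts changed 2-fold, 7 of 87 were called, and of 2-fold share changes, 4 of 87. Among the 34652 transcripts and 29502 shares simulated, 1473 unchanged transcripts and 1169 unchanged shares were called. The alternatives were DESeq2 1.42.0, other scalings and filters, a replicate block, limma 3.58.1 on log2(FPKM + 1) or log2(FPKM + 0.1) where FPKM reached 1 in at least 2 libraries or without that filter, each library left out, and, added after seeing the data, library totals without mitochondrial genes. No sequences were at hand, so none are shown.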

Additional observations from a re-analysis of the deposited data

How the results depend on the processing

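With 2 libraries per group, 2-fold changes of single transcripts or shares were seldom recovered in simulation, so the transcript results bound little. CBLL1 remained called under every alternative and with every library left out, at log2 differences of 0.77 to 1.20. Its adjusted p was 7.54e-06 in DESeq2, and 0.149 to 0.545 in the others. In the remaining values the cause of a change was not tested. DESeq2 called 1 member gene and 1 member transcript at an adjusted p under 0.05, where edgeR called 0, and 2 member transcripts lower instead of 0, while over all 37927 transcripts it called 2662 by adjusted p (edgeR 0) and 2636 lower (edgeR 1438). Shares with an unadjusted p of at most 0.05 numbered 1 without a filter and 1 with limma on FPKM instead of 0. Among the other m6A genes, limma on log2(FPKM + 0.1) called 1 lower instead of 0. The replicate numbers of the labels did not pair the libraries (correlation of deviations 0.022 over genes and 0.063 over transcripts), and a replicate block called 2 other m6A genes higher instead of 1, gave CBLL1 a log2 difference of 1.10 and turned the share of METTL14 ENST00000388822 from 0.027 to -0.0090. Leaving out 1 library, which leaves a lone library assumed to vary like the other group, gave 1 to 2 member genes higher and 0 to 1 lower, 0 to 2 other m6A genes higher and 0 to 2 lower, 0 to 1 member transcripts higher and 0 to 3 lower, and 0 to 3 shares. The 2 higher genes were without shIGF2BP3 replicate 1, where calls over all genes also rose, to 680 higher and 872 lower, and transcripts called lower to 3174, and the 1 lower gene without shIGF2BP3 replicate 2. IGF2BP3 passed a fold of 1.5 with library totals (-0.62), limma with a pseudocount of 1, filtered or not (-0.60), limma with 0.1 (-0.68) and without shCtrl replicate 2, its range with 1 library left out being -0.69 to -0.36. Over all genes, library totals called 195 higher and 485 lower beside 340 and 372 with TMM, and moved the median of all transcripts to -0.14. The sign turned for small gene differences: WTAP with limma (-0.053 and -0.054), VIRMA with library totals (-0.052) and limma (-0.072 and -0.077), and RBM15B with library totals (-0.046) and limma (-0.031 and -0.034). With 1 library left out, METTL3 ranged from -0.50 to 0.00080, WTAP from -0.077 to 0.26, VIRMA from -0.13 to 0.22, RBM15B from -0.051 to 0.12 and FTO from -1.11 to 0.27. Among transcripts, DESeq2, RLE factors and no filter turned VIRMA ENST00000297591 (0.010, 0.010 and 0.0053) and FTO ENST00000471389 (0.016, 0.017 and 0.011), DESeq2 and RLE factors turned WTAP ENST00000337387 (0.0025 and 0.0016), and library totals and limma turned RBM15B ENST00000563281 (-0.050, -0.031 and -0.034). Their ranges with 1 library left out were -0.28 to 0.25, -0.85 to 0.55, -0.20 to 0.17 and -0.0075 to 0.13, beside -0.073 to 0.44 for METTL3 ENST00000298717 and -0.010 to 0.57 for WTAP ENST00000358372. Among shares, FTO ENST00000471389 turned to 0.25 without a filter and WTAP ENST00000337387 to 0.22 with limma. The left-out ranges of shares that turned were -0.020 to 0.17 for CBLL1 ENST00000440859, -0.0056 to 0.58 for FTO ENST00000471389, -0.13 to 0.12 for METTL14 ENST00000388822, -0.11 to 0.27 and -0.42 to 0.25 for RBM15 ENST00000487146 and ENST00000617047, -0.18 to 0.014 for VIRMA ENST00000297591 and -0.50 to 0.23 for WTAP ENST00000337387.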
